A study of Rattus norvegicus with 4 samples.

Results

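The suppressor of cytokine signalling (SOCS) genes Socs1 (ENSRNOG00000002568), Socs2 (ENSRNOG00000008965), Socs3 (ENSRNOG00000002946), Socs5 (ENSRNOG00000028504) and Cish (ENSRNOG00000029543) were followed through rat blood cells, as 5 of the 25340 genes in the count tables. They were picked by symbol, with their levels in these libraries already known, so those levels are a description and no test is attached to them. Droplet single-cell libraries were made from the blood of rats without treatment after a sham procedure (Sham), with spinal cord injury by Allen's method (SCI), and with the same injury followed by mesenchymal stromal cells given intrathecally (MSC-i.t, 10000000 cells per kg) or intravenously (MSC-i.v, 30000000 cells per kg). Lists of 4 values below follow library order: Sham, SCI, then MSC-i.t, then MSC-i.v. The treated groups received 2 doses, at 72 hours and 7 days after injury. The study used 40 rats, 10 per group, but each group is 1 library here. How many rats a library holds, when blood was drawn, and the strain and age of the animals are not given in the sources used here. The route and the dose differ together between the 2 treated groups and cannot be told apart. With 1 library per group every ratio compares 2 libraries, and no comparison has a replicate check.

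Cytokine receptors of the JAK-STAT type carry Janus kinases, which phosphorylate STAT transcription factors when the cytokine binds. STATs then switch on SOCS genes, whose proteins bind the receptor or kinase, block it, and through their SOCS box recruit an elongin and cullin ubiquitin ligase, which closes a negative feedback loop. SOCS1 is best known for restraining interferon and common gamma chain cytokine signals in T cells. CISH and SOCS2 are known targets of STAT5, SOCS3 restrains signals through gp130, and SOCS5 has been tied to interleukin-4 and growth factor receptors.

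RefSeq promoter windows were on hand for 3 of the 5 members, Cish, Socs1 and Socs3. Those of Cish and Socs1 are printed because the 2 genes differ in which cytokine-response motifs they hold. Each is the 250 bases before the RefSeq start site in build GRCr8, plus strand, with Cish at chr8:116850719-116850968 and Socs1 at chr10:5389324-5389573. Capitals mark matches to TTCNNNGAA, the STAT-type motif, or to the interferon regulatory factor type, GAAA and GAAA with any 2 bases between them, on either strand.
Cish: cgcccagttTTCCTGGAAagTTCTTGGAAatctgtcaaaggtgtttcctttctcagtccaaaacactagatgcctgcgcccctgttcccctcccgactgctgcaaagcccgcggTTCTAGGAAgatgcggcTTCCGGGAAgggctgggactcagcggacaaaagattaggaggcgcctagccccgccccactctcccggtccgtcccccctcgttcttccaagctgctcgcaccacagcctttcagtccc
Socs1: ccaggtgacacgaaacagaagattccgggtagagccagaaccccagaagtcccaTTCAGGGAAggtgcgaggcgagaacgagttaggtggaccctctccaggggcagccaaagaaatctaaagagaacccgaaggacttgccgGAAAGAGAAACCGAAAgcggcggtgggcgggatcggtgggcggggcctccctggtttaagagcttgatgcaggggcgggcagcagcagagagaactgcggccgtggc
The Cish window held 4 STAT-type matches and no match of the interferon type. At least 1 STAT-type match was present in 7.67% of 33469 rat promoter windows of the same length, and 4 or more in 2 of them (0.00598%). The Socs1 window held 1 STAT-type match and 2 overlapping matches of the interferon type, GAAAGAGAAA and GAAACCGAAA. At least 1 match of the interferon type was present in 3.41% of windows and at least 2 in 0.206%. The Socs3 window, not printed, held no match of either type, and its start site lies inside the span of the gene. Matches are letters in a window and do not show that a factor binds there.

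The libraries held 63133881 to 91124523 UMIs (unique molecular identifiers, each counted once as an RNA molecule). Barcodes with at least 500 UMIs and 200 genes numbered 8527 to 16998 per library, with median depths of 4918, 5719, 5407 and 3764 UMIs. Marker gates placed 4022 to 8091 barcodes per library in 6 classes: CD4 T, CD8 T, regulatory T (T cells with a Foxp3 UMI and no Cd8 UMI), B, NK and monocyte. Cd4 transcripts are sparse, so 2573 to 4722 T barcodes per library carried no co-receptor UMI; they are shown as their own set of T cells. Marker genes kept out of the gates matched the labels in part: Pax5, Bank1, Cd22 and Fcmr summed to 1378 to 1569 CPM (UMIs per 1000000 UMIs of the class) in B cells and to at most 75.7 in the other classes, and Il2ra, Ctla4 and Ikzf2 to 189 to 273 in regulatory T cells. The T cell list (Lck, Cd2 and Bcl11b) summed to 1081 to 1219 in NK cells against 842 to 916 in CD4 T. Cd5 was meant for that list but was not found by symbol, so it adds nothing to the sum. The monocyte list (Spi1, Cst3, Tyrobp and Cebpa) summed to 4162 to 4689 in NK cells against 6244 to 7314 in monocytes. Those sums do not separate NK cells, but their members were mixed. Bcl11b stood at 18.2 to 32.8 in NK cells against 191 to 236 in CD4 T, while Lck and Cd2 were higher in NK cells. Cebpa was 0 in NK cells against 46.3 to 92.3 in monocytes, while Tyrobp was 4054 to 4546 against 5094 to 6073. The NK list (Gzma, Gzmb, Klrk1 and Il2rb) summed to 2906 to 4036 in NK cells and at most 234 in other classes. The 6 pairs of libraries shared 28 to 51 barcodes each, at most 0.586% of the smaller library, where random draws from the barcode list would share 13.3 to 28.4. The SCI library stands apart: 7.73% (CD8 T) to 15.8% (monocyte) of genes with at least 20 UMIs in the 2 libraries together were past 2-fold from Sham in either direction, against 2.34% to 4.95% for MSC-i.t and 1.72% to 5.59% for MSC-i.v. Names in the deposited files also carry a time tag that differs for SCI, so a time difference and the injury cannot be told apart in that library.

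Levels are in CPM, with exact Poisson 95% intervals that cover counting error only. In a sum over cells, fewer expressing cells and less RNA per cell cannot be told apart. In erythroid barcodes, where 50% or more of the UMIs are from hemoglobin, no member passed 0.961 CPM, or 2.21 CPM with hemoglobin UMIs left out of the total. Barcodes of 10 to 100 UMIs, which hold mostly free RNA, reached 6.41 CPM for Socs1, 21.1 for Socs2, 4.22 for Socs3, 20.1 for Socs5 and 10.7 for Cish, from at most 16 UMIs, so low levels in a class cannot be told from free RNA.

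Socs1 was higher in lymphocytes than in monocytes. Over the 4 libraries its mean was 27.3 CPM (SD 15.0) in NK cells, 22.3 in regulatory T cells, 11.9 in CD8 T, 11.8 in CD4 T, 7.17 in B cells and 1.12 in monocytes. The ranges of neighbouring classes overlapped down to B cells, and only the step from B cells (4.40 to 8.87) to monocytes (0.449 to 1.72) was clear of overlap. In CD8 T cells it stood at 8.71, 18.4, 5.84 and 14.6 CPM in library order, from 93, 253, 98 and 195 UMIs. SCI and MSC-i.v were the high libraries and Sham and MSC-i.t the low ones, with no overlap of the intervals between the 2 pairs (7.03 to 10.7, 16.2 to 20.8, 4.74 to 7.11 and 12.6 to 16.8). T cells without co-receptor UMIs gave the same order of pairs at 9.32, 17.1, 6.48 and 20.0 CPM. CD4 T cells stood at 7.15, 13.1, 6.92 and 20.1, with MSC-i.v highest. The regulatory T markers Il2ra, Ctla4 and Ikzf2 summed to 12.9, 19.6, 13.6 and 29.8 CPM in CD4 T cells, with MSC-i.v and SCI highest. In T cells without co-receptor UMIs these markers summed to 20.1, 17.3, 16.9 and 18.7, with Sham highest. Their part in the Socs1 levels was not tested. Regulatory T cells stood at 16.7, 28.7, 8.64 and 35.2, from only 9, 16, 5 and 27 UMIs, so their intervals overlap except between MSC-i.t (2.80 to 20.2) and MSC-i.v (23.2 to 51.3).
In NK cells SCI was highest, at 21.6, 49.1, 15.0 and 23.6 CPM. The summed interferon response genes listed below stood at 197, 338, 130 and 193 CPM in NK cells. Interferon-high shares were 1.54%, 8.33%, 1.35% and 1.54%, from 3, 11, 2 and 4 barcodes at unlike depths. SCI was highest and MSC-i.t lowest in these too, and their part in the Socs1 levels was not tested. B cells stood at 7.21, 8.87, 4.40 and 8.20 CPM, with MSC-i.t lowest.

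The share of CD8 T barcodes with a Socs1 UMI, after thinning each barcode to 2000 UMIs, was 1.72%, 3.73%, 1.24% and 2.75% in library order. Before thinning the shares were 4.89%, 11.1%, 3.67% and 6.60%, at median depths of 5939, 7074, 6622 and 4493 UMIs. Thinned monocyte barcodes, of the class with the lowest mean Socs1 level in these data, reached at most 0.330%. As the class is named from these same data, it is no independent control. Thinning left out 50, 34, 63 and 82 CD8 T barcodes. The libraries thus kept the same order in levels and in thinned shares, and of the 2 high libraries SCI was the deepest of all and MSC-i.v the shallowest.

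Between SCI and Sham, 20 of the 30 member and class pairs had enough UMIs to be read, and 3 were at least 2-fold higher in SCI and none lower. Over all genes 7.87% of gene and class pairs were at least 2-fold higher, with 6.16% in CD8 T, 6.83% in NK and 12.8% in monocytes. Socs1 was 2.11-fold higher in CD8 T (95% interval 1.66 to 2.71) and 2.27-fold higher in NK cells (1.25 to 4.23), at or above 94.5% and 95.4% of the genes of those classes. Socs5 was 2.27-fold higher in monocytes (1.42 to 3.58), where the median gene was already shifted by 0.39 on the log2 scale and 91.7% of genes lay at or below it. Socs1 was 1.83-fold higher in CD4 T (1.09 to 3.20), inside the 2-fold bound. With median-of-ratios scaling the count was 1. Calls of this size were thus common among all genes of this library pair.

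Against SCI, 4 of 21 readable pairs were at least 2-fold lower in MSC-i.t and none higher, and all 4 were Socs1. Over all genes 7.02% of gene and class pairs were at least 2-fold lower, with 6.36% in CD8 T, 8.52% in regulatory T, 6.83% in B and 8.35% in NK cells. The Socs1 ratio was 0.317 in CD8 T (0.249 to 0.402), 0.301 in regulatory T (0.0862 to 0.860), 0.306 in NK (0.140 to 0.621) and 0.496 in B cells (0.281 to 0.872). In MSC-i.v, 2 of 20 pairs were at least 2-fold lower than in SCI, against 7.52% over all genes and classes and 7.61% in NK cells. Both were in NK cells, where Socs1 had a ratio of 0.480 (0.264 to 0.855) and Socs5 of 0.390 (0.199 to 0.734). In CD4 T cells Socs1 was 1.54-fold higher in MSC-i.v than in SCI (1.05 to 2.25), and in CD8 T cells it had a ratio of 0.792 (0.653 to 0.958). These comparisons and the one with Sham share the SCI library.

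Sham served as the second reference for the treated libraries. MSC-i.t had none of 19 readable pairs past 2-fold, against 3.33% over all genes and classes. Its Socs1 ratio to Sham was 0.670 in CD8 T (0.50 to 0.90), at or above 4.40% of genes. The CD4 T ratio was 0.968 (0.541 to 1.77), at or above 46.0% of genes. For T cells without co-receptor UMIs it was 0.696 (0.538 to 0.901), at or above 6.22% of genes. B cells had 0.610 (0.355 to 1.04) and NK cells 0.695 (0.299 to 1.54), with intervals that include 1. MSC-i.v had 3 of 20 pairs at least 2-fold higher and none lower, against 1.22% over all genes and classes, 1.12% in CD4 T and 3.04% in regulatory T cells. Socs1 in CD4 T was 2.81-fold higher (1.66 to 4.94), at or above 99.7% of the genes tested there. T cells without co-receptor UMIs gave 2.15 (1.74 to 2.66), at or above 99.4% of genes. In regulatory T cells Socs1 had a ratio of 2.11 (0.964 to 5.10) and Cish of 2.03 (0.924 to 4.93), both with intervals that include 1. The count was 1 where regulatory T cells also had to carry a Cd4 UMI. In CD8 T cells Socs1 was 1.67-fold higher (1.30 to 2.16), under the 2-fold bound but at or above 98.4% of genes, and in NK cells the ratio was 1.09 (0.558 to 2.15).

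The 2 treated libraries were set against each other as a comparison added after the data were seen. Of 21 readable pairs, 3 were at least 2-fold higher in MSC-i.v and none lower, and all 3 were Socs1 in T cells. Over all genes 1.89% of gene and class pairs were at least 2-fold higher, with 1.57% in CD4 T, 1.70% in CD8 T and 3.72% in regulatory T cells. Socs1 was 2.90-fold higher in CD4 T (1.86 to 4.59), 2.49-fold in CD8 T (1.95 to 3.21) and 4.08-fold in regulatory T cells (1.55 to 13.6). T cells without co-receptor UMIs gave 3.09 (2.51 to 3.81). The ratio was 1.86 in B cells (1.16 to 3.07), at or above 98.2% of genes, and 1.57 in NK cells (0.723 to 3.60), at or above 93.3%.

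Other measures differ between these libraries. Monocyte markers, summed over Csf1r, Lyz2, Cd68, Fcnb, Vcan, Fn1 and Cd14, stood at 137, 56.8, 62.6 and 119 CPM in CD8 T cells, and platelet markers (Pf4, Ppbp, Gp9 and Itga2b) at 126, 38.8, 91.6 and 95.5. Hemoglobin took 1.05%, 0.598%, 0.558% and 2.07% of UMIs in these barcodes on average. In barcodes of 10 to 100 UMIs Socs1 stood at 2.11, 0, 1.54 and 6.41 CPM, from 1, 0, 1 and 16 UMIs. The part of these measures in the Socs1 levels was not tested. Without barcodes that had at least 3 platelet marker UMIs or over 5% hemoglobin, the log2 ratio of Socs1 in MSC-i.v over MSC-i.t in CD8 T cells was 1.34, against 1.32 with them.

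**Figure D1:**
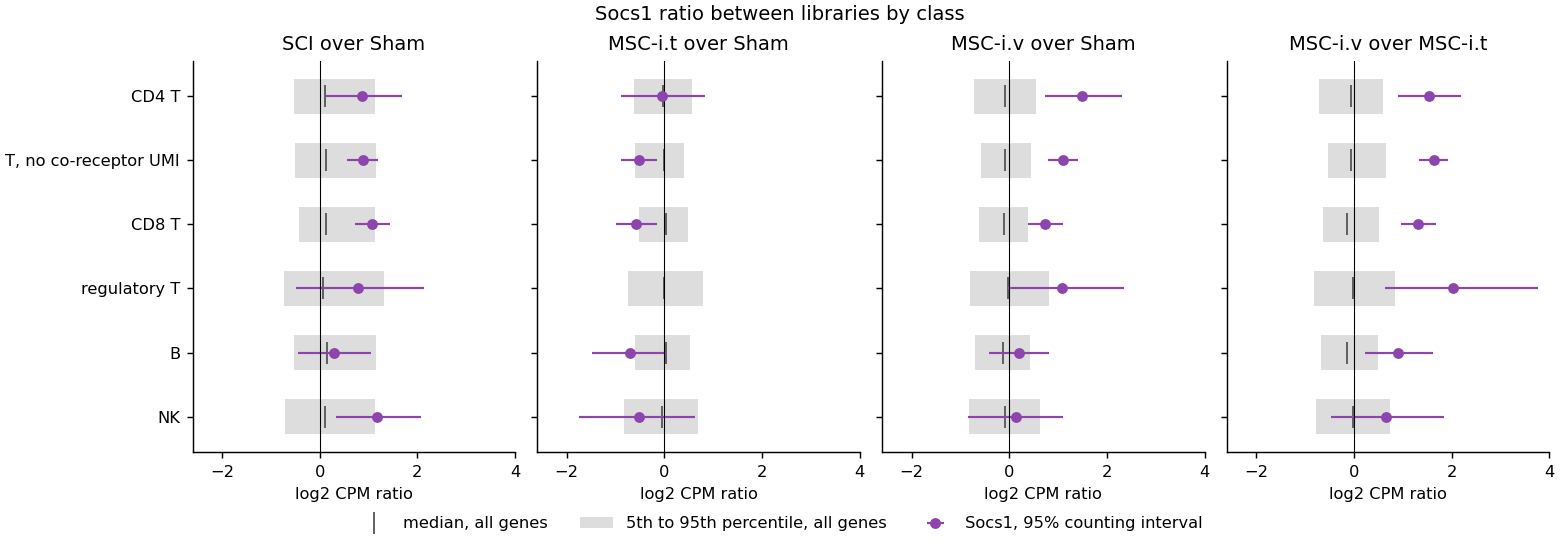
Log2 CPM ratio of Socs1 between libraries (points, with 95% counting intervals) by class, over grey bars that span the 5th to 95th percentile of all genes tested in that class and ticks at their median. MSC-i.v over Sham and over MSC-i.t place Socs1 to the right of the grey bars in the T cell classes, and MSC-i.v over MSC-i.t also in B cells. SCI over Sham falls within or close to a wider bar, and regulatory T cells of MSC-i.t over Sham had too few UMIs.

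Socs1 also differed between T cell states inside each library. Barcodes with 5 or more UMIs of the interferon response genes Ifit2, Ifit3, Isg15, Mx1, Mx2 and Oasl were set against those with at most 1. In CD8-negative T cells without Foxp3 (CD4 T cells and those without co-receptor UMIs), Socs1 stood at 19.2, 27.3, 14.9 and 51.4 CPM on the interferon-high side and at 8.72, 14.8, 5.43 and 16.0 on the low side. The interferon-high side was higher in all 4 libraries, by 2.20-fold (1.03 to 4.21), 1.85-fold (1.22 to 2.72), 2.73-fold (1.37 to 4.98) and 3.21-fold (2.29 to 4.40). The interferon-high barcodes were also deeper, with medians of 5837 against 4550 UMIs in Sham and 4512 against 3383 in MSC-i.v, and depth's part was not tested.
In CD8 T cells the interferon-high side stood at 34.7, 41.7, 9.03 and 19.4 CPM and the low side at 7.44, 16.7, 5.86 and 14.0. On the interferon-high side MSC-i.v lay below SCI (ratio 0.466, 0.210 to 0.961), and its ratio to Sham was 0.560 (0.239 to 1.25). The ratios of the high to the low side were 4.66 (2.59 to 8.03), 2.49 (1.62 to 3.73), 1.54 (0.486 to 3.76) and 1.39 (0.677 to 2.56). Their interval was clear of 1 in Sham and SCI only, with 5 and 11 interferon-high UMIs of Socs1 in the treated libraries. Whether these ratios differ between libraries was not tested. Socs3, Socs5 and Cish had intervals that include 1 in all 8 of these state and library pairs, and Socs2 in all but SCI CD8-negative T cells (2.28, 1.41 to 3.53).

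Interferon-high barcodes differed in share between libraries: they made up 2.46%, 5.95%, 4.59% and 5.05% of CD4 T cells, 12.5%, 7.89%, 5.94% and 11.6% of regulatory T cells, 2.57%, 3.44%, 1.97% and 2.86% of T cells without co-receptor UMIs and 3.94%, 4.14%, 2.42% and 3.30% of CD8 T cells. The regulatory T shares rest on 12, 6, 6 and 18 barcodes, with overlapping intervals. Summed, the interferon response genes stood at 184, 206, 158 and 229 CPM in T cells without co-receptor UMIs. In CD4 T cells they stood at 216, 225, 191 and 277, and both sets had the library order of Socs1. That order did not hold in CD8 T (187, 181, 146 and 197), regulatory T (428, 244, 283 and 448) or B cells (309, 339, 234 and 222). The part of these sums in the Socs1 levels was not tested. Both sides of the split use a fixed UMI number, and CD4 T cells had median depths of 4988, 5919, 5691 and 3711 UMIs. The shares and the make-up of the interferon-low side can thus depend on depth, whose part was not tested. Because the shares differed, Socs1 was also compared within the interferon-low barcodes. In interferon-low CD8-negative T cells the MSC-i.v ratio to Sham was 1.84 (1.46 to 2.33), below the 2-fold bound, against 2.24 (1.85 to 2.73) in all of them. The ratio to SCI was 1.09 (0.903 to 1.31) against 1.24 (1.07 to 1.43), so its interval then includes 1, and the ratio to MSC-i.t was 2.95 (2.34 to 3.74) against 3.05 (2.53 to 3.68). SCI over Sham was 1.69 (1.33 to 2.16) against 1.81 (1.48 to 2.23). MSC-i.t over Sham was 0.623 (0.470 to 0.826) against 0.736 (0.583 to 0.929), with both intervals below 1.
In interferon-low CD8 T cells MSC-i.v was 1.88-fold above Sham (1.38 to 2.60) and 2.39-fold above MSC-i.t (1.79 to 3.21), and SCI was 2.25-fold above Sham (1.65 to 3.09). MSC-i.t over Sham was 0.788 (0.551 to 1.13) there, with an interval that includes 1, unlike that of the whole class. Whether the ratios in interferon-low cells differ from those of the whole class was not tested.

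Cytotoxic CD8 T cells carried more Socs1. NK markers did not exclude T barcodes, so droplets that joined a T and an NK cell may be among those with Nkg7. Their part in the Socs1 levels was not tested. With 2 or more UMIs of Nkg7, a cytotoxic granule gene, CD8 T barcodes stood at 16.4, 34.7, 7.90 and 30.0 CPM, against 7.69, 15.7, 5.39 and 13.0 in those with none. The ratios were 2.13 (1.24 to 3.53), 2.22 (1.58 to 3.05), 1.47 (0.821 to 2.49) and 2.31 (1.52 to 3.43), with MSC-i.t the library whose interval includes 1. Among the Nkg7-negative barcodes MSC-i.v was 2.41-fold above MSC-i.t (1.80 to 3.25).

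**Figure D2:**
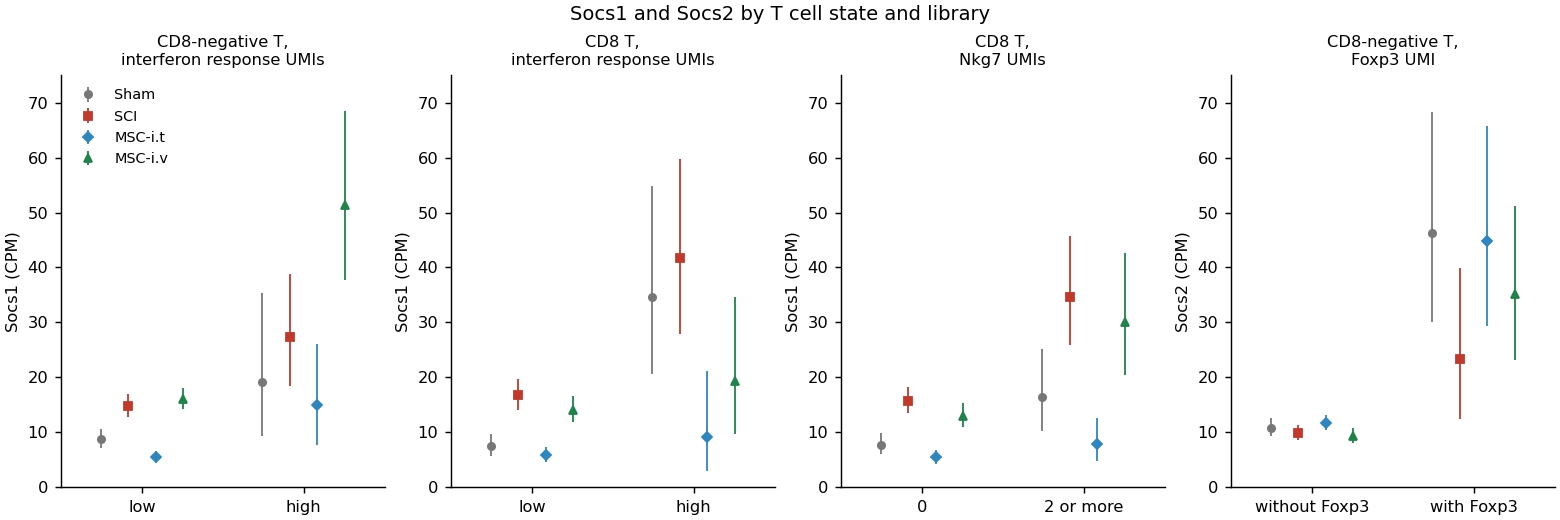
Socs1 or Socs2 level in CPM (linear axis) in T cells split by interferon response UMIs (at most 1 or at least 5), Nkg7 UMIs or a Foxp3 UMI; points are the 4 libraries and bars exact Poisson 95% intervals. Socs1 is higher on the right side of the first panel in each library, and Socs2 is 2.37-fold to 4.27-fold higher with Foxp3.

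Of the 6 classes, Socs2 was highest in regulatory T cells, followed by B cells. Regulatory T cells stood at 46.3, 23.3, 44.9 and 35.2 CPM in library order, a mean of 37.5 (SD 10.6) that did not overlap the next class, B cells, at 21.8, 19.6, 16.7 and 12.0. CD4 T cells followed at 8.27 to 12.9, CD8 T cells at 2.61 to 3.75, and NK cells and monocytes at up to 3.37 and 1.35. Against CD8-negative T cells without Foxp3 of the same library, regulatory T cells were 4.27-fold (2.69 to 6.53), 2.37-fold (1.24 to 4.15), 3.85-fold (2.47 to 5.76) and 3.78-fold (2.43 to 5.67) higher. The same contrast for Socs1 gave 1.87 (0.837 to 3.65), 1.77 (1.00 to 2.92), 1.31 (0.421 to 3.13) and 1.76 (1.15 to 2.60). For Socs5 it had intervals that include 1 in all 4 libraries, and for Cish in all but MSC-i.v (2.40, 1.54 to 3.59).
The few T barcodes with both Foxp3 and Cd8 UMIs, kept out of the 6 classes, stood as high, at 53.2, 21.4, 74.1 and 52.1 CPM from 11, 3, 21 and 10 UMIs.
In B cells Socs2 had a ratio of 0.549 in MSC-i.v over Sham (0.412 to 0.730), at or above 2.70% of genes, which falls short of the 2-fold bound. The MSC-i.v library was lowest and Sham highest in B cells. In regulatory T cells the ratio was 0.503 in SCI over Sham (0.236 to 1.02), at or above 2.22% of genes. It was 1.93 in MSC-i.t over SCI (0.955 to 4.08), at or above 97.4%, and both intervals include 1. No Socs2 pair passed 2-fold in any of the 6 comparisons.

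Socs3 was sparse, with 49 to 84 UMIs per library over the 6 classes, and its mean level was highest in CD4 T cells. Its CD4 T levels were even across libraries at 5.36, 6.09, 6.71 and 6.10 CPM, and CD8 T cells stood at 1.97, 1.96, 2.44 and 2.09. The CD4 T range of 5.36 to 6.71 lay above the CD8 T range, and every library had CD4 T above CD8 T. In T cells without co-receptor UMIs Socs3 was at 2.87, 5.68, 4.75 and 3.31 CPM, 1.98-fold higher in SCI than in Sham (1.33 to 2.98). Monocytes, in which SOCS3 is known as a feedback gene of interleukin-6 and interleukin-10 signals, had 8, 0, 1 and 2 UMIs, so no ratio was read. A level of up to 1.72 CPM is allowed by the count of 0 in SCI monocytes, taken as 3 counts.

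Socs5 was the most evenly spread member. Its class means ran from 34.8 CPM in regulatory T cells through 32.4 in CD8 T, 30.2 in CD4 T, 29.8 in NK and 24 in B cells to 12.2 in monocytes, and the ranges of all neighbours in this order overlapped. SCI was the highest library in each of the 6 classes. CD8 T cells stood at 26.4, 48.3, 29.4 and 25.5 CPM, B cells at 18.3, 33.6, 22.8 and 21.2, and monocytes at 8.09, 18.4, 12.3 and 9.83. SCI was 1.83-fold above Sham in CD8 T (1.59 to 2.11) and 1.84-fold in B cells (1.38 to 2.45), below the 2-fold bound. In SCI over Sham the 95th percentile of all genes was 1.14 in CD8 T cells on the log2 scale, and Socs5 at 0.87 lay inside it. The treated libraries had CD8 T ratios to Sham of 1.11 (0.959 to 1.29) and 0.964 (0.821 to 1.13).

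Cish was higher in T and NK cells than in B cells and monocytes. CD8 T cells stood at 16.1, 20.4, 17.4 and 15.7 CPM, and CD4 T cells at 15.4, 17.8, 18.1 and 15.4. The NK levels of 7.97 to 16.4 did not overlap those of monocytes (0.951 to 2.29), and B cells were as low, at 0.846 to 2.14. SCI was 1.27-fold above Sham in CD8 T cells (1.05 to 1.54), and in T cells without co-receptor UMIs MSC-i.v had a ratio to SCI of 0.659 (0.558 to 0.779). Regulatory T cells stood at 16.7, 19.7, 27.6 and 33.9 CPM, from 9, 11, 16 and 26 UMIs, with overlapping intervals. Thus in the CD8 T cells where Socs1 was 2.49-fold higher in MSC-i.v than in MSC-i.t, Cish had a ratio of 0.902 (0.752 to 1.08) and Socs5 of 0.867 (0.753 to 0.998).

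The genes most like each member were ranked by the Pearson correlation of log2(CPM + 1) over the 24 class and library points, among 8545 genes with at least 200 UMIs. The points share libraries and classes, so the values are descriptive. Cish was nearest to Rinl, Skap1, Cd6 and Lat (r = 0.97 each) and Cd27 (0.96), of which Lat and Skap1 encode T cell receptor adaptors. Socs2 was nearest to Zbtb32 (0.92) and Serpini1 (0.90), and Socs1 to Sesn3 (0.93), Arhgef6, Tcf19, Phf11 and Akap11 (0.91 each). Socs5 was nearest to the broadly expressed Ppia (0.94) and Birc6 (0.92), and Socs3 to Plcxd2 (0.87).

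The remaining SOCS genes on file were Socs4, Socs6 and Socs7. In CD8 T cells Socs4 stood at 5.34, 5.60, 5.48 and 4.41 CPM. Socs7 had 0, 32, 6 and 6 UMIs over the 6 classes in library order, or 1.30 CPM in SCI against a level of up to 0.112 that the count of 0 in Sham allows. The mix of classes differs between libraries, and in B cells alone Socs7 stood at 3.06 CPM in SCI against up to 0.584 in Sham.

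Beyond the members, 59 genes of the pathway were looked up: the other SOCS genes, ligase partners, kinases, STATs, receptors, other negative regulators and known STAT targets. Over the T cells without co-receptor UMIs, the best counted set, 2 of 54 readable genes were at least 2-fold higher in SCI than in Sham, against 6.48% of all genes, and the list's median log2 ratio of 0.14 was near the 0.13 of all genes. Those 2 were Pim1, a survival kinase induced by STAT5, at 6.88 against 1.32 CPM (5.21-fold, 3.11 to 9.27), and Jak2, the kinase of growth hormone and colony stimulating factor receptors, at 42.2 against 20.9 (2.02-fold, 1.75 to 2.33). In the treated libraries both were near Sham: Pim1 stood at 0.817 CPM after intrathecal and 1.76 after intravenous cells, and Jak2 at 21.2 and 22.0. In CD4 T cells Jak2 was at 23.6, 52.7, 22.8 and 22.6 CPM.
Across the 6 classes the numbers of pathway genes at least 2-fold higher in SCI than in Sham were 4 of 52 in CD4 T, 1 of 55 in CD8 T, 2 of 37 in regulatory T, 1 of 51 in B, 1 of 37 in NK and 4 of 49 in monocytes, against 6.37%, 6.16%, 8.81%, 6.64%, 6.83% and 12.8% of all genes. In B cells Bcl2l1, which encodes the survival protein BCL-XL, was lower, at 5.81 against 12.9 CPM (ratio 0.452, 0.256 to 0.762), and MSC-i.t had 5.92 (0.461, 0.297 to 0.704). In NK cells the phosphatase gene Ptpn11 was at 92.3 CPM in SCI against 38.7 in Sham (2.38-fold, 1.55 to 3.74). Monocytes of SCI had more Il15ra (36.1 against 15.6 CPM) and Il10ra (22.4 against 11.1), receptor chains for interleukin-15 and interleukin-10, in a class where the median of all genes was shifted by 0.39.

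Between MSC-i.v and Sham, 1 of 54 pathway genes was at least 2-fold higher in T cells without co-receptor UMIs, against 0.911% of genes: Il15ra, at 1.82 against 0.621 CPM from 33 and 8 UMIs. In CD4 T cells 2 of 50 readable pathway genes were at least 2-fold higher than in Sham, against 1.12% of genes. Il2ra, the high-affinity chain of the interleukin-2 receptor, stood at 6.79, 10.0, 8.34 and 20.1 CPM, a 2.96-fold ratio to Sham (1.73 to 5.27). In T cells without co-receptor UMIs it was even, at 14.5, 12.2, 10.3 and 12.4. In regulatory T cells 4 of 38 were at least 2-fold higher, against 3.04% of genes, among them Irf1, an interferon-induced transcription factor, at 115 against 53.8 CPM (2.14-fold, 1.39 to 3.37) and Gbp2, an interferon-induced GTPase, at 49.6 against 24.1 (2.06-fold, 1.07 to 4.21).
The same genes in T cells without co-receptor UMIs were also highest in MSC-i.v: Irf1 stood at 53.7, 60.4, 62.8 and 90.9 CPM and Gbp2 at 19.8, 20.3, 17.1 and 31.8, neither of them past 2-fold. SCI, the other library with high Socs1, had both genes near the Sham and MSC-i.t levels, and Pim1 and Jak2 high. In CD8 T cells of MSC-i.v no pathway gene was past 2-fold from Sham (0 of 54, against 1.72% of all genes), and Irf1 stood at 59.4, 64.5, 64.4 and 72.2 CPM.
MSC-i.t had 0 of 54 pathway genes past 2-fold from Sham in T cells without co-receptor UMIs and 0 of 54 in CD8 T cells, against 2.17% and 2.34% of all genes.

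**Figure D3:**
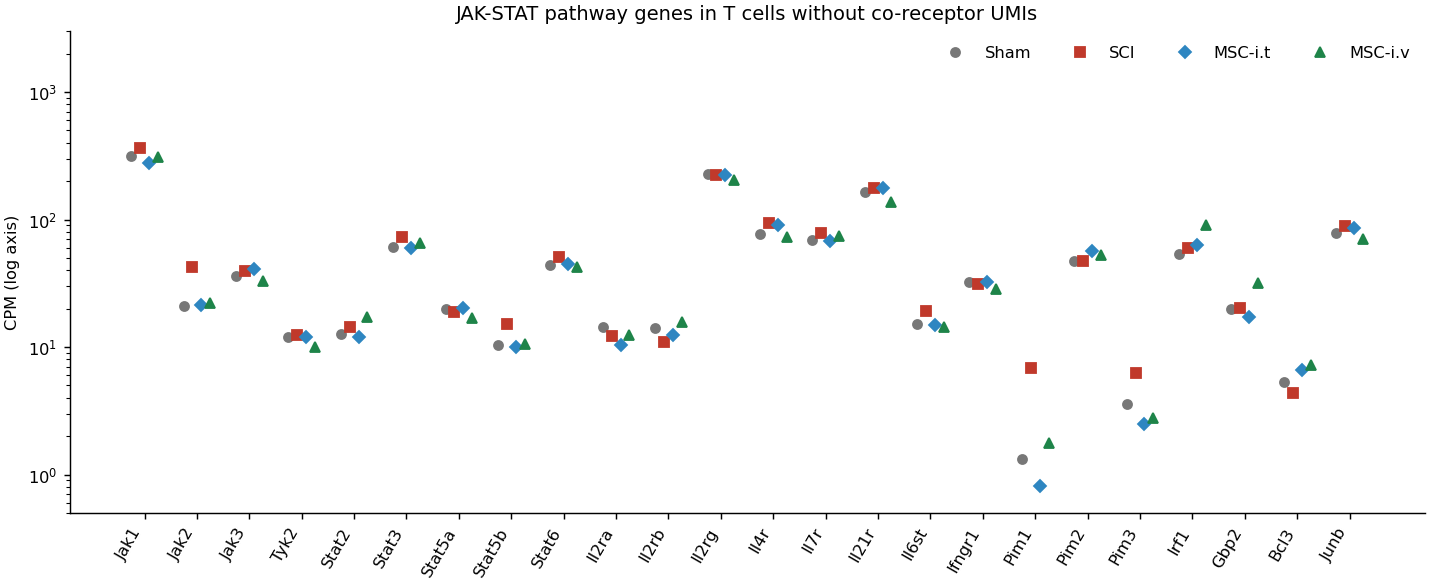
CPM (log axis) of JAK-STAT pathway genes in T cells without co-receptor UMIs; points are the 4 libraries. Jak2, Pim1 and Pim3 are highest in SCI, and Irf1 and Gbp2 in MSC-i.v, while Jak1, Il2rg, Il7r and Junb lie close together.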

How the data were processed

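The authors deposited UMI counts per gene and barcode for 4 blood libraries, made with Cell Ranger 4 (per the file headers), with genome build mRatBN7.2 per the submitters' processing notes. The labels' protocol describes a bulk preparation and was not used. Members and lists were chosen with earlier results of these data known. Barcodes with at least 500 UMIs and 200 genes were kept. Gates needed 2 UMIs of Cd3 genes (T) or of B markers, or 3 of NK or monocyte markers, with the other classes below their gates. T cells were an exception, as NK markers did not exclude them, and NK cells had to carry no Cd3 UMI. T cells were split by 1 UMI of Cd4, Cd8a or Cd8b, or Foxp3. The regulatory T gate was settled after the data were seen. No doublet caller was run; T barcodes with B or monocyte markers were left out. UMIs were summed per class and library and scaled to CPM. Pairs with at least 20 UMIs were read and called past 2-fold. Ratio intervals are exact conditional binomial, 95%. Named pathway genes are up to 4 per direction, past 2-fold with at least 50 UMIs; genes shown outside that rule were chosen after their values were seen. Steps used Python 3.11.15, numpy 2.4.6 and scipy 1.17.1, and were tested on simulated data. Alternatives covered gates, filters, scaling and thresholds.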

Additional observations from a re-analysis of the deposited data

Results flagged for a closer look

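Barcodes with T cell and B or monocyte markers, left out of the classes, gave Socs1 at 8.21, 20.4, 5.36 and 17.1 CPM in library order. On the log2 scale SCI was 1.32 above Sham, and MSC-i.v was 1.06 above it. They were flagged because the report's comparisons do not use them and the level was at least 2-fold above Sham. Cish in erythroid barcodes was flagged in the same way for MSC-i.v over Sham, at 0.961 against 0.386 CPM (1.32 on the log2 scale), from 17 and 4 UMIs.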

How the results depend on the processing

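No paired analysis was possible because each group is 1 library, and no replicate could be left out. The 17 of 30 member and class means at or above 10 CPM became 17 to 19 under 8 other settings. Of the recomputed class means, 26 moved by more than their SD over the libraries and 214 did not. None of 153 recomputed ratios of called pairs changed direction or left its interval. Part of these could not move: the UMI minimum only sets which pairs are read, and the added gates change only CD4 T or regulatory T cells. Of the counts of pairs past 2-fold, those that moved by over 1.5 times follow. With median-of-ratios scaling SCI over Sham went from 3 to 1 and MSC-i.v over SCI from 2 to 1, which was also 1 without the deepest 5% of barcodes and with CPM taken without hemoglobin, mitochondrial and ribosomal genes. With at least 50 UMIs MSC-i.t over SCI went from 4 to 2, MSC-i.v over SCI to 1 and MSC-i.v over Sham from 3 to 1. With no minimum of UMIs the counts were 5 for SCI over Sham, 9 for MSC-i.t over SCI, 4 for MSC-i.v over SCI, and 6 for each treated library over Sham. At 1.5-fold they were 8 for SCI over Sham, 10 for each treated library over SCI, 4 for MSC-i.t and 6 for MSC-i.v over Sham, and 6 between the treated libraries. With a Cd4 UMI required of regulatory T cells, a setting added after the data were seen, MSC-i.v over Sham went to 1. Counts limit most class levels of Socs3 and all regulatory T values.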
